A study of Mus musculus with 78 samples.

Results

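The 8 genes described here encode the enzymes that make serine and pass a carbon from it to folate: Phgdh, Psat1, Psph, Shmt1, Shmt2, Mthfd1, Mthfd1l and Mthfd2. They were taken by name from a table of 14695 genes measured in mouse CD8+ T cells, and all 8 passed the filter on low counts in every fit. These primary cells, from C57BL/6J spleen and lymph node, were studied at day 3 after activation. In the first experiment the cells spent 3 h in Control medium or in medium lacking 1 nutrient. The labels call these groups No Arginine, No BCAA (the branched-chain amino acids leucine, isoleucine and valine), No Glucose, No Glutamine and No Methionine. In the second they received the solvent DMSO, halofuginone, Torin1 or 4EGI-1 (4EGi1 in the labels), whose doses the labels do not give. Halofuginone inhibits prolyl-tRNA synthetase, Torin1 inhibits the kinase mTOR, and 4EGI-1 blocks assembly of the cap-binding translation complex. Total RNA and polysome RNA, pooled from fractions 9 to 13 of a sucrose gradient, were sequenced from each lysate, with 3 libraries in each of 20 groups. The molecule is labelled polyA RNA for the drug and total RNA for the nutrient experiment, so levels were never compared between the experiments. They do not say whether replicates were separate cultures or animals, so p-values reflect the spread of these libraries only, which may be technical. Fewer cells of a type and less RNA per cell cannot be told apart in such bulk samples.

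Phgdh oxidises the glycolytic intermediate 3-phosphoglycerate, Psat1 transfers an amino group from glutamate to the product, and Psph removes the phosphate to leave serine. The serine hydroxymethyltransferases, Shmt1 in the cytosol and nucleus and Shmt2 in mitochondria, split serine into glycine and a folate-bound carbon. In mitochondria Mthfd2 oxidises that carbon and Mthfd1l releases it as formate, which Mthfd1 loads back onto folate in the cytosol for purine and thymidylate synthesis. Activated T cells are known to induce this pathway, and the stress-responsive factor Atf4 is a known activator of the serine synthesis genes, Shmt2 and Mthfd2.

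Total RNA libraries held 15144663 to 30637485 counts and polysome libraries 29917770 to 54272886 in the nutrient experiment, against 17506526 to 23099949 and 17846266 to 24929556 in the drug experiment. All 7 CD8 T cell markers listed were in the table, and their summed level was 5502 to 9755 CPM (counts scaled to library size) in nutrient and 8377 to 11410 CPM in drug libraries. Of 4 B cell markers, Cd79a and Ighm were present, at a sum of 17.7 to 26.2 CPM in nutrient and 105.5 to 136.5 CPM in drug libraries. Of 5 myeloid markers only Cd68 was present (7.82 to 12.7 and 3.72 to 10.2 CPM), and of 3 CD4 T cell markers only Foxp3 (0 to 0.109 and 0.0492 to 2.76 CPM). No entry matched the 3 NK cell or the 3 erythroid markers listed, so their levels were not analysed here.

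The 150 bases before the annotated start are shown for the 5 members called higher in total RNA without BCAA, glucose, glutamine and methionine alike (Phgdh, Psat1, Psph, Shmt2 and Mthfd2), and for Shmt1, which was called lower in the same 4 comparisons. The sequences are from RefSeq on GRCm38.p6, written 5′ to 3′ on the strand of the gene, with CCAAT, or its reverse complement ATTGG, in capitals. The counts themselves were made on GRCm39, per the submitters' processing notes, so only gene names link the sequences to the values. The windows are chr3:98339970-98340119 (minus strand) for Phgdh, chr19:15925060-15925209 (minus strand) for Psat1 (the first of 2 annotated starts), chr5:129787254-129787403 (minus strand) for Psph, chr10:127522445-127522594 (minus strand) for Shmt2, chr6:83317605-83317754 (minus strand) for Mthfd2 and chr11:60811266-60811415 (minus strand) for Shmt1.
Phgdh: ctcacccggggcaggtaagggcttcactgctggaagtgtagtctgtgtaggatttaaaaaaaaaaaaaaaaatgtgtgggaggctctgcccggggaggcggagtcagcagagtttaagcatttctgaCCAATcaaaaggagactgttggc
Psat1: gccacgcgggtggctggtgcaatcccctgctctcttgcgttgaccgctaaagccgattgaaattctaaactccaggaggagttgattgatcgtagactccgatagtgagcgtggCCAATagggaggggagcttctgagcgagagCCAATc
Psph: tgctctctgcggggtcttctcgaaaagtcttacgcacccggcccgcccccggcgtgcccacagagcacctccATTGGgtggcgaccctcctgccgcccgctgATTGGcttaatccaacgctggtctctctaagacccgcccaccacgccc
Shmt2: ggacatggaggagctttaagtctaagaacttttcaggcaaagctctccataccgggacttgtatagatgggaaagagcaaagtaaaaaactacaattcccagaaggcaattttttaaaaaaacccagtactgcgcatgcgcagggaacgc
Mthfd2: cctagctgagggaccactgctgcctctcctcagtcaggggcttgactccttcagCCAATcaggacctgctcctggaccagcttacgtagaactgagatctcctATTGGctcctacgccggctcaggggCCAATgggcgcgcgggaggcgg
Shmt1: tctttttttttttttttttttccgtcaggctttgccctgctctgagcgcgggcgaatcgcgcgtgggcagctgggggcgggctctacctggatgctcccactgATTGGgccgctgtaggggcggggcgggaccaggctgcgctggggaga
Mthfd2 held 3 matches, starting 96, 47 and 22 bases before the start, Psat1 held 2 (36 and 6 bases; the window of its other annotated start held 0) and Psph held 2 (78 and 48 bases). Phgdh held 1 match (23 bases) and Shmt1 held 1 (47 bases), as did Mthfd1 on the plus strand of chromosome 12, while the windows of Shmt2 and Mthfd1l held none. Of 32851 windows of that length before annotated starts, 24.5% held at least 1 match and 6.02% held 2 or more. Neither TGATGNAA, a core letter pattern of the sites bound by Atf4 with its partners, nor CACGTG, the E-box letters, occurred on either strand of any member's 300-base window, where 3.97% and 7.15% of all windows held them. A match describes letters only, and its absence covers only these windows.

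In total RNA, 5 or 6 of the 8 members rose under every deprivation except that of arginine. Without BCAA 6 of the 8 members were higher and 2 lower by edgeR's quasi-likelihood test with Benjamini-Hochberg adjustment, where 16.4% and 13.6% of all genes were. The counts were 6 higher and 1 lower without glucose (background 21.8% and 19%), and 6 higher and 1 lower without glutamine (background 20.4% and 18.6%). Without methionine 5 were higher and 2 lower (background 19.5% and 15.7%). Arginine deprivation left 1 member higher and 0 lower (background 5.1% and 4.14%). At an unadjusted p under 0.05 these counts were 3 and 2, and DESeq2 called 2 and 1. The median log2 fold change of the 8 members, beside that of all genes tested, was 0.56 against 0.0027 without BCAA, 0.32 against 0.025 without glucose, 0.59 against -0.0078 without glutamine, 0.30 against 0.022 without methionine and 0.061 against 0.0070 without arginine. The 5 comparisons share the 3 Control libraries, so their values are set side by side and no likeness between them is read. Levels below are CPM of the TMM-scaled library, changes are log2 fold changes ± standard error, and a change is called at an adjusted p under 0.05. Leave-one-out fits drop each library of the groups compared in turn. Neighbours in an order of means overlap or lie apart by the values of their 3 libraries alone, which is not a call. How many of all genes have groups that lie apart was not computed.

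**Figure D1:**
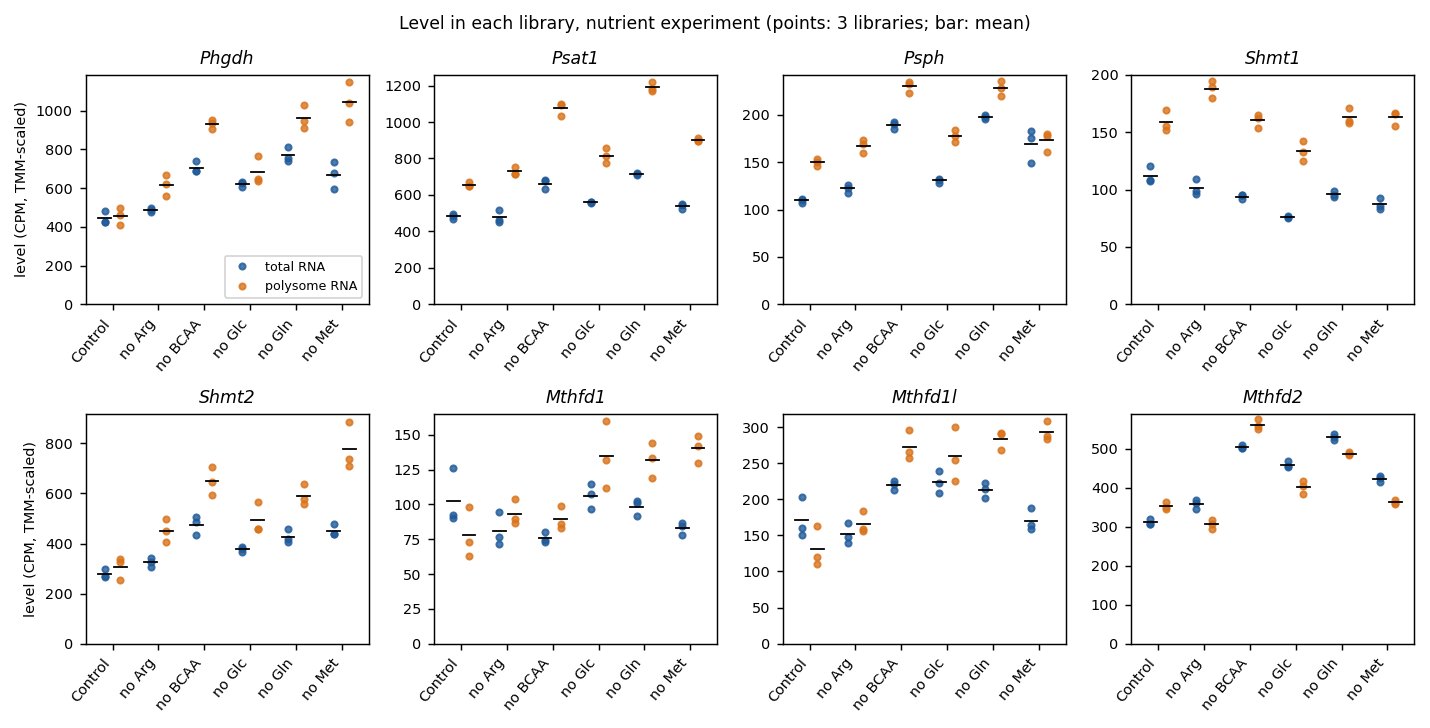
Levels of the 8 enzymes in the nutrient experiment, one panel per gene, with TMM-scaled CPM on the y axis and the 6 media on the x axis; blue points are total RNA libraries, orange points polysome libraries and bars the means of 3. Phgdh, Psat1, Psph, Shmt2 and Mthfd2 sit above Control in most deprived media, Phgdh reaching a mean of 1044 CPM in polysomes without methionine, while Shmt1 in total RNA is lowest without glucose.

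All 3 serine synthesis genes rose in total RNA without BCAA, glucose, glutamine or methionine, and all 3 rose in polysomes in all 5 deprivations. Phgdh, whose enzyme commits glycolytic carbon to serine, measured 481, 427 and 424 CPM in the Control libraries of total RNA, 691, 740.2 and 689 without BCAA and 811, 739.5 and 756 without glutamine. The lowest value in either deprived medium lay above the highest Control value. The log2 changes of Phgdh were 0.14 ± 0.072 without arginine, 0.67 ± 0.072 without BCAA, 0.48 ± 0.072 without glucose, 0.79 ± 0.072 without glutamine and 0.59 ± 0.072 without methionine, all but the first called. Adjusted p-values were 0.251, 3.08e-07, 1.7e-05, 1.68e-08 and 1.4e-06 in that order. By mean ± SD (n = 3), Phgdh stood at 769 ± 37.5 without glutamine, 707 ± 29.1 without BCAA and 669.9 ± 68.7 without methionine. Next came 620.3 ± 14.4 without glucose, 489 ± 8.88 without arginine and 444 ± 32.0 in Control. Among neighbours in this order, only the media without glucose and without arginine had libraries that did not overlap. In polysome RNA, Control libraries held 497, 409 and 462 CPM of Phgdh and those without methionine 944, 1039 and 1150 CPM, again with no overlap. The polysome changes of Phgdh were 0.44 ± 0.092 without arginine, 1.03 ± 0.093 without BCAA, 0.58 ± 0.092 without glucose, 1.08 ± 0.093 without glutamine and 1.20 ± 0.093 without methionine, all called. Its level without methionine was 2.29-fold that of Control (adjusted p = 1.6e-09). Means in polysomes were 1044 ± 103 without methionine, 962 ± 62.0 without glutamine and 931 ± 23.8 without BCAA. Next came 683 ± 71.7 without glucose, 617 ± 52.9 without arginine and 456 ± 44.4 in Control. Libraries without BCAA lay apart from those without glucose, and those without arginine apart from Control, while the other neighbours overlapped.

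Psat1, the aminotransferase that uses glutamate, was at 494, 466 and 486 CPM in Control total RNA and at 713, 711 and 719 CPM without glutamine. The 2 groups did not overlap, and the libraries without glutamine were the highest for this gene in total RNA. Its log2 changes were -0.016 ± 0.059 without arginine (adjusted p = 0.906), 0.46 ± 0.059 without BCAA (adjusted p = 3.7e-06) and 0.22 ± 0.059 without glucose (adjusted p = 0.00584). Glutamine deprivation gave 0.57 ± 0.059 (adjusted p = 1.26e-07) and methionine deprivation 0.16 ± 0.059 (adjusted p = 0.0377). The smallest of the calls, without methionine, was lost in 4 of 6 leave-one-out fits (replicates 1 and 3 of No Methionine and replicates 2 and 3 of Control; changes of 0.14 to 0.18 over all 6). Total RNA means of Psat1 ran in the order 714 ± 3.91 without glutamine, 662 ± 27.7 without BCAA and 560.2 ± 3.39 without glucose. Next came 539 ± 12.9 without methionine, 482 ± 14.4 in Control and 477 ± 34.6 without arginine. Control and the medium without arginine were the only neighbours whose libraries overlapped. By edgeR the steps from BCAA to glucose deprivation (adjusted p = 0.00381) and from methionine deprivation to Control (0.0377) were called. Those from glutamine to BCAA (0.239) and from glucose to methionine deprivation (0.508) were not. In polysomes Psat1 changed by 0.16 ± 0.055 without arginine, 0.72 ± 0.055 without BCAA, 0.32 ± 0.055 without glucose, 0.86 ± 0.056 without glutamine and 0.46 ± 0.055 without methionine. Its polysome means were 1190 ± 28.2 without glutamine, 1076 ± 38.1 without BCAA and 901 ± 8.53 without methionine. Next came 816 ± 41.2 without glucose, 729 ± 22.7 without arginine and 654 ± 12.4 in Control, with no overlap between neighbours. Of these steps only that from glutamine to BCAA deprivation was not called by edgeR (adjusted p = 0.0593). The smallest polysome call of Psat1, without arginine (adjusted p = 0.0308), was lost without No Arginine replicate 1 (0.13, adjusted p = 0.127) and without Control replicate 3 (0.15, adjusted p = 0.0877).

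Psph, the phosphatase of the last step, was at 107, 112 and 111 CPM in Control total RNA, 190, 192 and 186 without BCAA and 196, 198 and 199.8 without glutamine. Neither deprived group overlapped Control. The log2 fold changes of Psph were 0.16 ± 0.065 without arginine (adjusted p = 0.144), 0.79 ± 0.065 without BCAA (adjusted p = 7.33e-09) and 0.25 ± 0.065 without glucose (adjusted p = 0.00401). Glutamine deprivation gave 0.85 ± 0.065 (adjusted p = 1.27e-09) and methionine deprivation 0.63 ± 0.065 (adjusted p = 1.88e-07). No neighbours overlapped in its total RNA means of 198 ± 1.90 without glutamine, 189 ± 3.52 without BCAA and 169 ± 17.7 without methionine. Next came 131 ± 2.48 without glucose, 122 ± 4.65 without arginine and 109.8 ± 2.28 in Control. By edgeR only the step from methionine to glucose deprivation was called (adjusted p = 0.000142, the others 0.113 to 0.566). In polysome RNA the changes of Psph were 0.16 ± 0.061 without arginine, 0.62 ± 0.061 without BCAA, 0.24 ± 0.061 without glucose, 0.61 ± 0.061 without glutamine and 0.21 ± 0.061 without methionine, where all 5 were called. Its polysome means were 230.4 ± 5.99 without BCAA, 228 ± 8.00 without glutamine and 178 ± 5.98 without glucose. Next came 173 ± 10.3 without methionine, 167 ± 6.72 without arginine and 150 ± 3.83 in Control. Only the media without glutamine and without glucose, and the medium without arginine and Control, were neighbours that lay apart. The polysome call of Psph without arginine (adjusted p = 0.0451) was lost in 5 of 6 leave-one-out fits (replicates 1, 2 and 3 of Control and replicates 2 and 3 of No Arginine; changes of 0.13 to 0.19 over all 6).

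The serine hydroxymethyltransferases moved in opposite directions in total RNA: the mitochondrial Shmt2 rose and the cytosolic Shmt1 fell without BCAA, glucose, glutamine or methionine. Shmt2 measured 298, 271 and 265 CPM in Control total RNA, 487, 505 and 436 without BCAA and 437, 438 and 476 without methionine, with no overlap between Control and either medium. Its changes were 0.22 ± 0.071 without arginine (adjusted p = 0.0515), 0.78 ± 0.071 without BCAA (adjusted p = 3.39e-08) and 0.44 ± 0.071 without glucose (adjusted p = 4.48e-05). Glutamine deprivation gave 0.62 ± 0.071 (adjusted p = 5.15e-07) and methionine deprivation 0.70 ± 0.071 (adjusted p = 1.45e-07). The change without arginine was called without Control replicate 1 (0.28, adjusted p = 0.0419) and without No Arginine replicate 3 (0.27, adjusted p = 0.0334). Means of Shmt2 were 476 ± 35.8 without BCAA, 450.3 ± 22.5 without methionine and 426 ± 26.3 without glutamine. Next came 377 ± 9.42 without glucose, 325 ± 18.9 without arginine and 278 ± 17.7 in Control. The medium without methionine overlapped both of its neighbours, and the other neighbours lay apart. Of the steps that lay apart, only that from glucose to arginine deprivation was called by edgeR (adjusted p = 0.0205, the others 0.0612 and 0.0515). In polysomes Shmt2 rose in all 5 deprivations, from 337, 255 and 326 CPM in Control to 711, 738 and 887 CPM without methionine, groups that did not overlap. The polysome changes of Shmt2 were 0.56 ± 0.12 without arginine, 1.09 ± 0.12 without BCAA, 0.69 ± 0.12 without glucose, 0.95 ± 0.12 without glutamine and 1.35 ± 0.12 without methionine. Without methionine its level was 2.55-fold that of Control (adjusted p = 6.7e-09). Polysome means were 778 ± 94.9 without methionine, 649 ± 55.8 without BCAA and 592 ± 41.5 without glutamine. Next came 493 ± 61.8 without glucose, 451 ± 47.6 without arginine and 306 ± 44.6 in Control. Libraries without methionine lay apart from those without BCAA (adjusted p = 0.0705 by edgeR, not called), and those without arginine from Control (0.000846). The remaining neighbours overlapped.

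Shmt1 was at 121, 108 and 108 CPM in Control total RNA and at 77.0, 76.4 and 75.3 CPM without glucose, its lowest group, with no overlap. The total RNA changes of Shmt1 were -0.15 ± 0.064 without arginine (adjusted p = 0.165), -0.26 ± 0.064 without BCAA (adjusted p = 0.00403) and -0.56 ± 0.064 without glucose (adjusted p = 7.34e-07). Glutamine deprivation gave -0.23 ± 0.064 (adjusted p = 0.00759) and methionine deprivation -0.36 ± 0.064 (adjusted p = 0.000151). Its call without glutamine was lost without Control replicate 1 (-0.17, adjusted p = 0.0543). Means of Shmt1 were 112 ± 7.39 in Control, 101 ± 6.91 without arginine and 95.9 ± 2.66 without glutamine. Next came 94.0 ± 1.97 without BCAA, 87.4 ± 4.88 without methionine and 76.2 ± 0.843 without glucose, and among neighbours only the last pair did not overlap. In polysomes Shmt1 did not follow that order: its changes were 0.24 ± 0.067 without arginine (adjusted p = 0.00725), 0.013 ± 0.067 without BCAA (adjusted p = 0.883) and -0.25 ± 0.067 without glucose (adjusted p = 0.00306). Glutamine deprivation gave 0.037 ± 0.067 (adjusted p = 0.643) and methionine deprivation 0.037 ± 0.067 (adjusted p = 0.64). The polysome libraries without arginine (194, 189 and 180.3 CPM) lay above those of Control (169.5, 152 and 155 CPM), and those without glucose (143, 133 and 125 CPM) below them. Polysome means of Shmt1 were 188 ± 7.11 without arginine, 163 ± 6.90 without glutamine and 163 ± 6.34 without methionine. Next came 160.4 ± 5.97 without BCAA, 159 ± 9.29 in Control and 133 ± 9.10 without glucose. The first and last pairs in this order lay apart and the others overlapped.

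The balance between compartments was also read within each library, as the ratio of the counts of Shmt2 to those of Shmt1, which does not depend on how libraries are scaled. Gene lengths were not used, so a ratio has meaning only as a change between groups. In total RNA the ratio was 2.47, 2.51 and 2.45 in the Control libraries and 5.23, 5.09 and 5.13 without methionine. Group ratios in total RNA were 2.48 in Control and 3.21 without arginine, 5.05 without BCAA, 4.95 without glucose, 4.44 without glutamine and 5.15 without methionine. In polysomes they were 1.91 in Control and 2.39 without arginine, 4.04 without BCAA, 3.69 without glucose, 3.63 without glutamine and 4.75 without methionine. The log2 difference from Control was largest among these 10 comparisons in polysomes without methionine, at 1.31, and smallest in polysomes without arginine, at 0.32. Every condition of both experiments lay wholly above its control, in 16 of 16 comparisons, those with drugs included. Comparisons within an experiment and assay share their control libraries, so they are not independent. How often the ratios of other gene pairs lie apart was not computed. The exact permutation test of 3 against 3 libraries cannot go below p = 0.1, the two-sided value of each comparison, which is 0.117 after Benjamini-Hochberg adjustment over the 48 ratio comparisons made.

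Of the folate enzymes, the mitochondrial Mthfd2 rose in total RNA in all 5 deprivations, while the cytosolic Mthfd1 was called higher in none. Mthfd2, which oxidises the mitochondrial one-carbon unit, was at 308, 308 and 320.3 CPM in Control total RNA, 369, 347 and 361 without arginine and 523, 539 and 532 without glutamine, and these groups did not overlap. Its changes were 0.20 ± 0.052 without arginine (adjusted p = 0.0158), 0.69 ± 0.052 without BCAA (adjusted p = 1.58e-09) and 0.56 ± 0.052 without glucose (adjusted p = 3.93e-08). Glutamine deprivation gave 0.77 ± 0.052 (adjusted p = 1.78e-10) and methionine deprivation 0.44 ± 0.052 (adjusted p = 9.45e-07). The call of Mthfd2 without arginine was lost without Control replicate 1 (0.19, adjusted p = 0.0671), without No Arginine replicate 1 (0.18, adjusted p = 0.0875) and without Control replicate 2 (0.19, adjusted p = 0.0565). No neighbours overlapped in its order of 531 ± 8.16 without glutamine, 505 ± 4.65 without BCAA and 459 ± 8.54 without glucose. Next came 424 ± 6.86 without methionine, 359 ± 11.4 without arginine and 312 ± 7.14 in Control. By edgeR the steps from methionine to arginine deprivation (adjusted p = 0.00166) and from arginine deprivation to Control (0.0158) were called. Those from glutamine to BCAA (0.379), BCAA to glucose (0.054) and glucose to methionine deprivation (0.0855) were not. Polysomes gave another order for Mthfd2, with means of 562 ± 12.6 without BCAA, 488 ± 3.12 without glutamine and 402 ± 16.7 without glucose. Next came 363 ± 6.26 without methionine, 354 ± 9.47 in Control and 307 ± 12.0 without arginine. Only the medium without methionine and Control were neighbours that overlapped. Control polysome libraries held 346, 364 and 352 CPM of Mthfd2, those without arginine 295, 308 and 319 CPM, wholly below, and those without methionine 361, 369.5 and 358 CPM, overlapping Control. The polysome changes of Mthfd2 were -0.21 ± 0.055 without arginine (adjusted p = 0.00582), 0.67 ± 0.055 without BCAA (adjusted p = 9.86e-09) and 0.18 ± 0.055 without glucose (adjusted p = 0.00729). Glutamine deprivation gave 0.46 ± 0.055 (adjusted p = 5.51e-07) and methionine deprivation 0.034 ± 0.055 (adjusted p = 0.593). Its fall without arginine was not called without Control replicate 2 (-0.16, adjusted p = 0.0663).

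Mthfd1l, the formate-releasing enzyme of mitochondria, was at 203, 150 and 161 CPM in Control total RNA, 225, 212 and 222 without BCAA and 239, 223 and 209 without glucose. Control replicate 1 stood above the other Control libraries for this gene, and the deprived groups still lay above it. The total RNA changes of Mthfd1l were -0.17 ± 0.095 without arginine (adjusted p = 0.275), 0.36 ± 0.094 without BCAA (adjusted p = 0.00563) and 0.39 ± 0.094 without glucose (adjusted p = 0.00249). Glutamine deprivation gave 0.32 ± 0.094 (adjusted p = 0.0107) and methionine deprivation -0.0068 ± 0.095 (adjusted p = 0.964). Without glutamine its libraries overlapped Control, and the call was lost without Control replicate 2 (0.23, adjusted p = 0.0814) and without Control replicate 3 (0.27, adjusted p = 0.058). Means of Mthfd1l were 224 ± 15.0 without glucose, 219.8 ± 6.66 without BCAA and 213 ± 10.2 without glutamine. Next came 171 ± 27.9 in Control, 170.2 ± 15.1 without methionine and 151 ± 13.9 without arginine. All neighbours in that order overlapped. In polysomes Mthfd1l rose in all 5 deprivations, from 163, 110.3 and 119.5 CPM in Control to 291, 292 and 268 without glutamine and 288, 284 and 309 without methionine, neither of which overlapped Control. The polysome changes were 0.34 ± 0.12 without arginine (adjusted p = 0.0282), 1.06 ± 0.12 without BCAA (adjusted p = 6.17e-07) and 0.99 ± 0.12 without glucose (adjusted p = 1.15e-06). Glutamine deprivation gave 1.12 ± 0.12 (adjusted p = 1.77e-07) and methionine deprivation 1.17 ± 0.12 (adjusted p = 7.41e-08). The rise without arginine, where the groups overlapped, was lost without No Arginine replicate 1 (0.26, adjusted p = 0.144), without Control replicate 2 (0.26, adjusted p = 0.0983) and without Control replicate 3 (0.28, adjusted p = 0.114). Without Control replicate 1 it was 0.53, adjusted p = 0.000724. Polysome means of Mthfd1l were 294 ± 13.0 without methionine, 284 ± 13.8 without glutamine and 273 ± 19.9 without BCAA. Next came 259.5 ± 37.6 without glucose, 166 ± 15.7 without arginine and 131 ± 28.1 in Control. Of these neighbours only those without glucose and without arginine lay apart.

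Mthfd1, the cytosolic enzyme that reloads formate onto folate, was at 126, 90.1 and 92.1 CPM in Control total RNA, so replicate 1 again stood above the other Control libraries. Without BCAA it was at 80.4, 74.3 and 73.1 CPM and without methionine at 86.4, 78.1 and 84.6 CPM, both wholly below Control. The total RNA changes of Mthfd1 were -0.34 ± 0.11 without arginine (adjusted p = 0.0599), -0.44 ± 0.11 without BCAA (adjusted p = 0.0049) and 0.049 ± 0.11 without glucose (adjusted p = 0.76). Glutamine deprivation gave -0.060 ± 0.11 (adjusted p = 0.703) and methionine deprivation -0.31 ± 0.11 (adjusted p = 0.0365). The fall without BCAA was not called without Control replicate 1 (-0.26, adjusted p = 0.0533), and that without methionine was not called without Control replicate 1 (-0.13, adjusted p = 0.326), without No Methionine replicate 2 (-0.26, adjusted p = 0.112) and without No Methionine replicate 3 (-0.32, adjusted p = 0.0678). Means of Mthfd1 were 106 ± 9.02 without glucose, 103 ± 20.2 in Control and 98.4 ± 5.92 without glutamine. Next came 83.0 ± 4.38 without methionine, 81.0 ± 12.2 without arginine and 75.9 ± 3.89 without BCAA. Only the media without glutamine and without methionine were neighbours that lay apart, and edgeR did not call that step (adjusted p = 0.114). In polysomes Mthfd1 was at 97.9, 62.9 and 72.9 CPM in Control and 142, 129.8 and 149 CPM without methionine, with no overlap. The polysome changes of Mthfd1 were 0.26 ± 0.14 without arginine (adjusted p = 0.144), 0.20 ± 0.14 without BCAA (adjusted p = 0.233) and 0.79 ± 0.14 without glucose (adjusted p = 8.01e-05). Glutamine deprivation gave 0.76 ± 0.14 (adjusted p = 8.99e-05) and methionine deprivation 0.85 ± 0.14 (adjusted p = 2.35e-05). Without Control replicate 1 the polysome changes of Mthfd1 without arginine (0.46, adjusted p = 0.00842) and without BCAA (0.40, adjusted p = 0.0139) were called too, and its total RNA change without arginine was called without Control replicate 2 (-0.43, adjusted p = 0.0327) and without No Arginine replicate 3 (-0.47, adjusted p = 0.0137). Its polysome means were 140.3 ± 9.85 without methionine, 135 ± 24.3 without glucose and 132 ± 12.5 without glutamine. Next came 93.4 ± 9.53 without arginine, 89.5 ± 8.31 without BCAA and 77.9 ± 18.0 in Control. The media without glutamine and without arginine were the only neighbours that lay apart.

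Mthfd1l and Mthfd1 were both highest in Control replicate 1, and their ratio within each library varied little among the Control libraries. The ratio of Mthfd1l to Mthfd1 counts in total RNA was 1.61, 1.67 and 1.74 in Control, 2.81, 2.86 and 3.03 without BCAA and 2.17, 2.03 and 1.95 without methionine, with no overlap. It lay above the control in 16 of 16 comparisons over both experiments and assays, with log2 differences from Control in total RNA of 0.17 without arginine, 0.79 without BCAA, 0.33 without glucose, 0.37 without glutamine and 0.29 without methionine. The smallest of the 16 differences was 0.079, in polysomes without arginine, and these comparisons share control libraries too. The ratio of Mthfd2 to Mthfd1 in total RNA went from 3.07 in Control to 4.46 without arginine, 6.65 without BCAA, 4.33 without glucose, 5.40 without glutamine and 5.11 without methionine. In polysomes the ratio of Mthfd2 to Mthfd1 was 3.53, 5.80 and 4.83 in Control and 2.54, 2.85 and 2.39 without methionine, wholly below it. Over all 16 comparisons the ratio of Mthfd2 to Mthfd1 lay above its control in 7, below in 2 and overlapping in 7, and the second below was in polysomes with Torin1. Wherever the libraries of such a ratio did not overlap, the exact permutation p (two-sided) was 0.1, the smallest it can be.

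**Figure D2:**
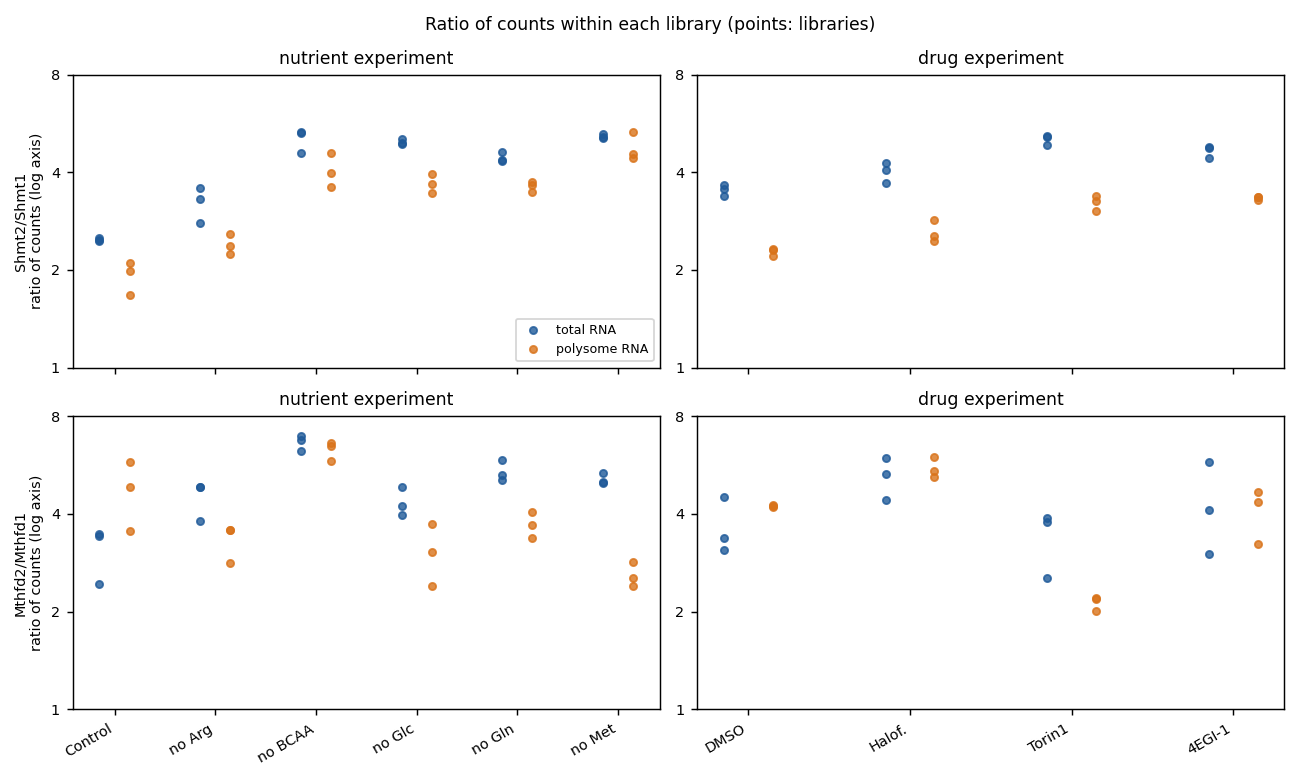
Ratio of Shmt2 to Shmt1 counts and of Mthfd2 to Mthfd1 counts in each library (y axis, log scale) by medium or drug (x axis), with blue points for total RNA and orange points for polysome RNA; only changes between groups can be read, since gene lengths were not used. The ratio of Shmt2 to Shmt1 lies above its control in 16 of 16 comparisons, which share control libraries, while the group value of Mthfd2 to Mthfd1 in polysomes without methionine is 2.59, below the 4.62 of Control.

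In polysome RNA, 6 or 7 of the 8 transcripts were called higher in each deprived medium, arginine deprivation included. Without arginine 6 members were higher and 1, Mthfd2, lower (background 19% and 21.6%). Without glucose 7 were higher and 1, Shmt1, lower (background 29.6% and 29.4%). The counts were 6 higher and 0 lower without BCAA (background 28.7% and 27.4%), 7 and 0 without glutamine (background 32.2% and 32.4%), and 6 and 0 without methionine (background 34.3% and 34.7%). In these last 3 comparisons no member was lower at an unadjusted p under 0.05 in edgeR, nor called lower by DESeq2. Medians of the 8 members, beside those of all genes, were 0.25 against -0.024 without arginine, 0.69 against -0.015 without BCAA, 0.45 against -0.010 without glucose, 0.81 against -0.018 without glutamine and 0.66 against -0.026 without methionine. Fitted on the arginine-deprived and Control polysome libraries alone, 3 members were called higher and 0 lower without arginine. That fit called 3958 of 12086 genes either way.

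**Figure D3:**
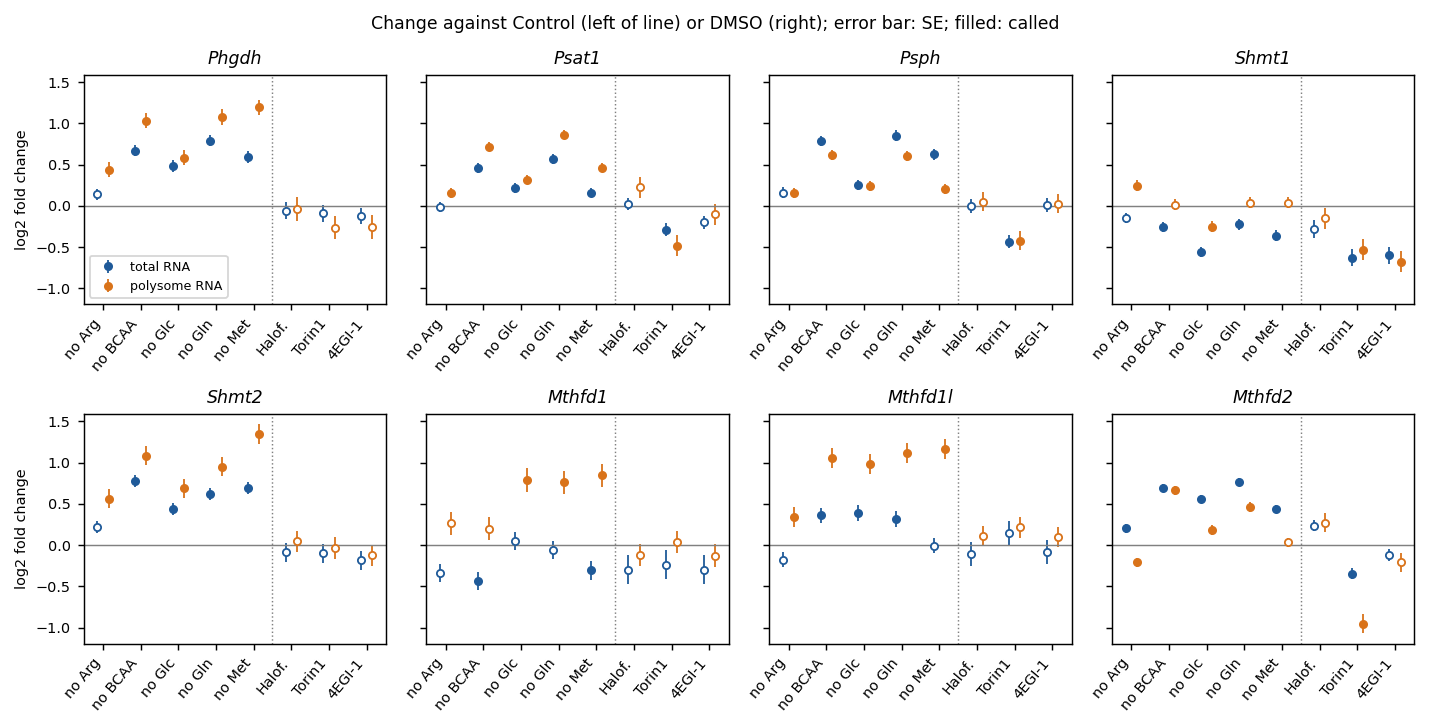
Log2 fold changes (y axis, ± standard error) of the 8 enzymes in total RNA and in polysome RNA, against Control for the 5 deprivations left of the dotted line and against DMSO for the 3 drugs right of it; filled points were called at an adjusted p under 0.05 by edgeR. The highest polysome change is that of Shmt2 without methionine, 1.35, and the lowest that of Mthfd2 with Torin1, -0.95.

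Translational efficiency, the polysome to total ratio in a deprived medium relative to that ratio in Control, rose for Mthfd1 and Mthfd1l in all 5 deprivations and fell for Mthfd2 in 4. The changes of Mthfd1 were 0.59 ± 0.18 without arginine (adjusted p = 0.022), 0.53 ± 0.18 without BCAA (adjusted p = 0.0273) and 0.66 ± 0.18 without glucose (adjusted p = 0.00655). Glutamine deprivation gave 0.69 ± 0.18 (adjusted p = 0.00304) and methionine deprivation 1.07 ± 0.18 (adjusted p = 9.13e-06). Those of Mthfd1l were 0.51 ± 0.15 without arginine (adjusted p = 0.0199), 0.59 ± 0.15 without BCAA (adjusted p = 0.0039) and 0.52 ± 0.15 without glucose (adjusted p = 0.0107). Glutamine deprivation gave 0.66 ± 0.15 (adjusted p = 0.000892) and methionine deprivation 1.09 ± 0.15 (adjusted p = 5.23e-07). Without methionine the efficiency of Mthfd1 was 2.10-fold and that of Mthfd1l 2.12-fold that of Control. In Control itself both were lower in polysomes than in total RNA, with polysome to total log2 ratios of -0.38 ± 0.13 (adjusted p = 0.00986) for Mthfd1 and -0.36 ± 0.11 (adjusted p = 0.00351) for Mthfd1l. For Mthfd1 the call was lost in 6 of 12 leave-one-out fits (replicate 1 of total Control, replicates 1 and 2 of total No Arginine, replicate 1 of polysome No Arginine and replicates 2 and 3 of polysome Control; changes of 0.42 to 0.77 over all 12) in the comparison without arginine and in 6 of 12 leave-one-out fits (replicate 1 of total Control, replicates 2 and 3 of total No BCAA, replicate 1 of polysome No BCAA and replicates 2 and 3 of polysome Control; changes of 0.36 to 0.71 over all 12) in that without BCAA. For Mthfd1l it was lost in 5 of 12 leave-one-out fits (replicate 1 of total Control, replicate 2 of total No Arginine, replicate 1 of polysome No Arginine and replicates 2 and 3 of polysome Control; changes of 0.37 to 0.68 over all 12) in the comparison without arginine and without total Control replicate 1 (0.38, adjusted p = 0.0661) and without polysome No Glucose replicate 1 (0.41, adjusted p = 0.056) in that without glucose.

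Mthfd2, a gene that rose in total RNA in all 5 media, had efficiency changes of -0.42 ± 0.073 without arginine (adjusted p = 3e-04), -0.14 ± 0.073 without BCAA (adjusted p = 0.167) and -0.46 ± 0.073 without glucose (adjusted p = 1.81e-05). Glutamine deprivation gave -0.44 ± 0.073 (adjusted p = 1.82e-05) and methionine deprivation -0.50 ± 0.073 (adjusted p = 1.06e-06). In polysomes the gene had been called higher without BCAA, glucose and glutamine, lower without arginine, and not called without methionine. Psph fell in efficiency in 3 media, with changes of -0.014 ± 0.090 without arginine (adjusted p = 0.938), -0.27 ± 0.090 without BCAA (adjusted p = 0.0222) and -0.093 ± 0.090 without glucose (adjusted p = 0.489). Glutamine deprivation gave -0.38 ± 0.090 (adjusted p = 0.00116) and methionine deprivation -0.51 ± 0.090 (adjusted p = 1.82e-05). Its calls were lost in 4 of 12 leave-one-out fits (replicate 1 of total Control, replicate 1 of polysome No BCAA and replicates 2 and 3 of polysome Control; changes of -0.31 to -0.24 over all 12) in the comparison without BCAA and without total No Glutamine replicate 1 (-0.23, adjusted p = 0.0729) in that without glutamine. The call of Psph without BCAA was also lost with DESeq2 (-0.21, adjusted p = 0.0606). In edgeR it was lost with DESeq2's size factors (-0.21, adjusted p = 0.0901) and with the groups compared alone (-0.21, adjusted p = 0.0742). A call in efficiency is a difference from 0, and the median of all genes without BCAA was -0.12. Phgdh was called in efficiency without methionine alone, with changes of 0.29 ± 0.11 without arginine (adjusted p = 0.0775), 0.25 ± 0.11 without BCAA (adjusted p = 0.0927) and 0.016 ± 0.11 without glucose (adjusted p = 0.938). Glutamine deprivation gave 0.15 ± 0.11 (adjusted p = 0.329) and methionine deprivation 0.51 ± 0.11 (adjusted p = 0.000281). Psat1 was likewise called without methionine alone, at 0.21 ± 0.074 (adjusted p = 0.018), its other changes being 0.16 ± 0.074 without arginine, 0.15 ± 0.074 without BCAA, 0.016 ± 0.074 without glucose and 0.16 ± 0.074 without glutamine. Shmt1 rose in efficiency without arginine, 0.38 ± 0.085 (adjusted p = 0.00362), and without methionine, 0.31 ± 0.086 (adjusted p = 0.00311), with changes of 0.16 ± 0.085 without BCAA, 0.22 ± 0.086 without glucose and 0.12 ± 0.085 without glutamine that were not called. For Shmt2 the changes were 0.32 ± 0.13 without arginine, 0.21 ± 0.13 without BCAA, 0.16 ± 0.13 without glucose, 0.20 ± 0.13 without glutamine and 0.56 ± 0.13 without methionine, and only the change without methionine was called (adjusted p = 0.000721).

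Without methionine all 8 members were called in efficiency, 6 higher and 2 lower, where 19.2% and 29.9% of all genes were called. The counts were 3 higher and 1 lower without arginine (background 6.72% and 9.81%), 2 and 1 without BCAA (background 8.03% and 18.9%), 2 and 1 without glucose (background 8.84% and 16.9%), and 2 and 2 without glutamine (background 9.98% and 25.2%). Member medians beside those of all genes were 0.31 against -0.039 without arginine, 0.18 against -0.12 without BCAA, 0.090 against -0.075 without glucose, 0.15 against -0.15 without glutamine and 0.41 against -0.14 without methionine. Leaving out total RNA No Glutamine replicate 1 added calls without glutamine for Phgdh (0.34, adjusted p = 0.0384), Psat1 (0.31, adjusted p = 0.00365), Shmt1 (0.30, adjusted p = 0.0154) and Shmt2 (0.41, adjusted p = 0.0384). Without arginine, single libraries left out added calls for Phgdh without polysome Control replicate 1 (0.34, adjusted p = 0.0418) and without polysome No Arginine replicate 3 (0.35, adjusted p = 0.0279), Psat1 without total No Arginine replicate 3 (0.22, adjusted p = 0.0358) and Shmt2 without polysome No Arginine replicate 3 (0.39, adjusted p = 0.0385). In the BCAA comparison they did so for Phgdh without polysome Control replicate 1 (0.30, adjusted p = 0.0497) and in the glucose comparison for Shmt1 without total Control replicate 2 (0.25, adjusted p = 0.0461), without polysome Control replicate 1 (0.25, adjusted p = 0.0358) and without polysome No Glucose replicate 3 (0.26, adjusted p = 0.0301). Each lysate gave both a total and a polysome library, and with that pairing as a block 5 members were higher without arginine, Shmt2 (0.33, adjusted p = 0.0286) and Phgdh (0.28, adjusted p = 0.0178) being added. That fit called 3025 of 13072 genes either way without arginine, where the main fit called 879 higher and 1283 lower. The lysate block also called Phgdh without BCAA (0.25, adjusted p = 0.0236) and Shmt1 without glucose (0.22, adjusted p = 0.049). With DESeq2's size factors, which move the median of all genes without glutamine by 0.131, 4 members were higher in efficiency without glutamine and 4 without BCAA. Those comparisons called 4183 and 3124 of 13072 genes either way.

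The scaled polysome to total ratio, which is relative to other genes and not a share on polysomes, also differed between transcripts within the controls. Member medians of its log2 beside those of all genes were 0.18 against 0.093 in Control and 0.48 against -0.068 with DMSO. A call here is a difference from 0, not from the median of all genes. In Control 4 of the 8 were higher in polysomes and 2 lower, where 37.6% and 28% of all genes were. The 4 were Shmt1 (0.53 ± 0.060), Psph (0.48 ± 0.064), Psat1 (0.47 ± 0.052) and Mthfd2 (0.21 ± 0.051), and the 2 were Mthfd1 and Mthfd1l. The Control call of Mthfd1 was lost without total Control replicate 1 (-0.20, adjusted p = 0.174) and without polysome Control replicate 2 (-0.25, adjusted p = 0.101) and that of Mthfd1l without total Control replicate 1 (-0.22, adjusted p = 0.0772), while that of Shmt2 (0.16 ± 0.095 (adjusted p = 0.137)) was gained without polysome Control replicate 2 (0.27, adjusted p = 0.0181). In the DMSO libraries of the drug experiment 6 were higher (background 28.4%): Shmt1 (1.09 ± 0.12), Phgdh (0.94 ± 0.13), Psph (0.92 ± 0.097), Psat1 (0.49 ± 0.11), Shmt2 (0.47 ± 0.13) and Mthfd2 (0.22 ± 0.090). Mthfd1 (-0.024 ± 0.17) and Mthfd1l (-0.18 ± 0.14) were not called with DMSO, and the call of Mthfd2 was lost in 5 of 6 leave-one-out fits (replicates 1, 3 and 4 of total DMSO and replicates 1 and 3 of polysome DMSO; changes of 0.18 to 0.27 over all 6).

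**Figure D4:**
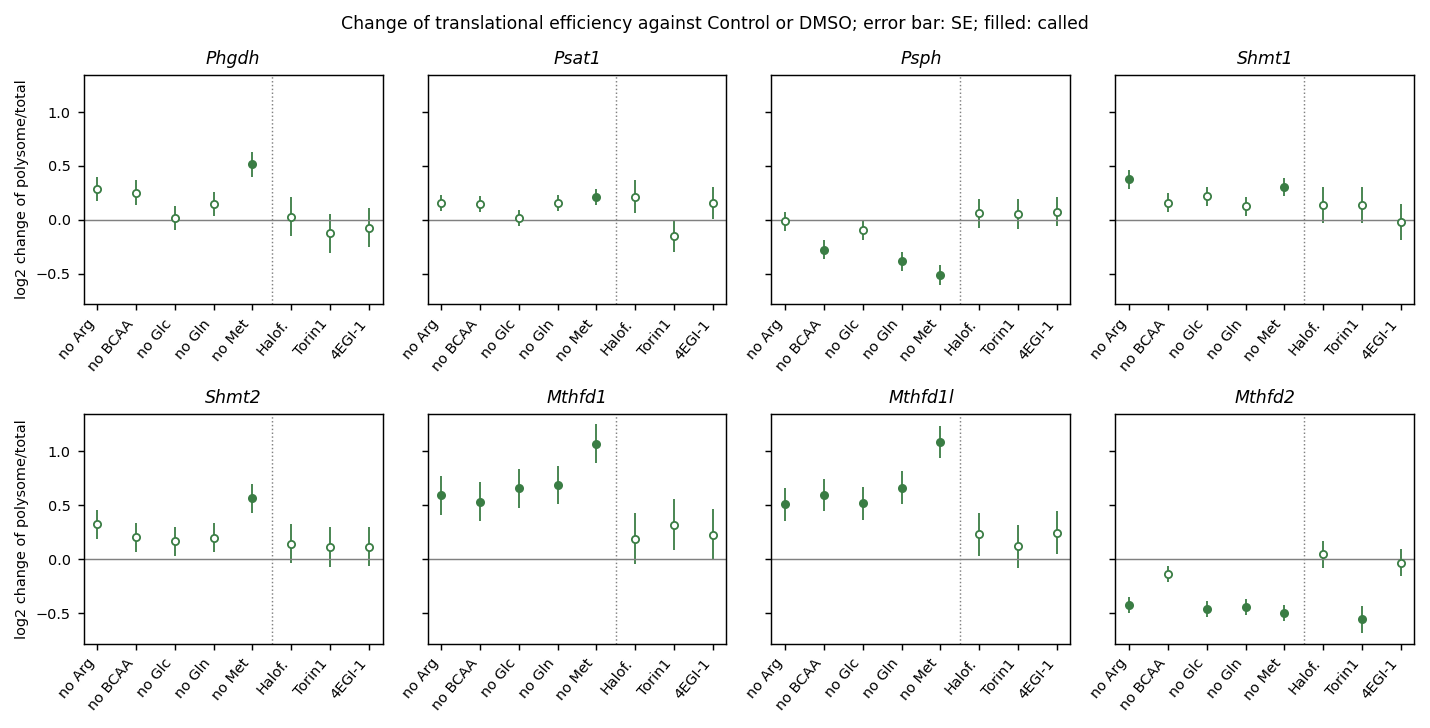
Changes in translational efficiency of the 8 enzymes (y axis, log2 of the polysome over total level, relative to the control, ± standard error) by deprivation, left of the dotted line, and drug, right of it; filled points were called by edgeR at an adjusted p under 0.05. Mthfd1 and Mthfd1l are called higher in all 5 deprivations, reaching 1.07 and 1.09 without methionine, and Mthfd2 is called lower in 4 of 5 and with Torin1.

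Every pair of deprivations was also fitted in each assay, to tell which neighbours in an order differ. The few pairs given here were not chosen by a stated rule and do not stand for the rest. In total RNA 5 of the 8 members were lower without glucose than without glutamine, where 32.5% of all genes differed either way: Phgdh (-0.31 ± 0.072, adjusted p = 0.00209), Psat1 (-0.35 ± 0.059, adjusted p = 0.000102), Psph (-0.60 ± 0.065, adjusted p = 5.31e-07), Shmt1 (-0.33 ± 0.065, adjusted p = 0.000466) and Mthfd2 (-0.21 ± 0.052, adjusted p = 0.00353). All 5 calls were kept when any single library was left out. Glutamine and methionine deprivation differed in 5 members, all higher without glutamine (background 25.7% either way): Phgdh (0.20 ± 0.071, adjusted p = 0.0455), Psat1 (0.41 ± 0.059, adjusted p = 3.56e-05), Psph (0.22 ± 0.065, adjusted p = 0.0145), Mthfd1l (0.32 ± 0.095, adjusted p = 0.0153) and Mthfd2 (0.33 ± 0.052, adjusted p = 9.06e-05). Of these, Phgdh was lost in 5 of 6 leave-one-out fits (replicates 1, 2 and 3 of No Glutamine and replicates 1 and 2 of No Methionine; changes of 0.14 to 0.27 over all 6) and Mthfd1l without No Glutamine replicate 1 (0.29, adjusted p = 0.0626), without No Methionine replicate 2 (0.28, adjusted p = 0.0657) and without No Methionine replicate 3 (0.30, adjusted p = 0.0572). In efficiency 3 members differed between BCAA and methionine deprivation (background 14.8% either way), with Mthfd2 higher without BCAA, 0.36 ± 0.073 (adjusted p = 0.000777), and Mthfd1, -0.54 ± 0.18 (adjusted p = 0.0392), and Mthfd1l, -0.49 ± 0.15 (adjusted p = 0.0243), lower. Mthfd1 was lost in 9 of 12 leave-one-out fits (replicates 2 and 3 of polysome No BCAA, replicates 1 and 3 of polysome No Methionine, replicates 1, 2 and 3 of total No BCAA and replicates 2 and 3 of total No Methionine; changes of -0.60 to -0.49 over all 12), and Mthfd1l in 5 of 12 leave-one-out fits (replicate 3 of polysome No BCAA, replicate 3 of polysome No Methionine, replicate 1 of total No BCAA and replicates 2 and 3 of total No Methionine; changes of -0.57 to -0.44 over all 12). Calls were gained for Shmt2 (-0.36 ± 0.13, adjusted p = 0.0671) without polysome No BCAA replicate 2 (-0.43, adjusted p = 0.0391), without polysome No Methionine replicate 1 (-0.42, adjusted p = 0.04) and without total No BCAA replicate 3 (-0.42, adjusted p = 0.05), and for Psph (0.24 ± 0.090, adjusted p = 0.0719) without total No Methionine replicate 1 (0.32, adjusted p = 0.0064).

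With halofuginone no member was called, and hardly any of all genes were. With Torin1 4 members were called lower, where 13.3% of all genes in total RNA and 8.3% in polysomes were. With 4EGI-1 only Shmt1 was called lower, a count near the background of 12.3% in total RNA and 14.5% in polysomes. In total RNA with halofuginone 0 of 8 were called higher and 0 lower by edgeR (background 0.239% and 0.0399%); at an unadjusted p under 0.05 there was 1 each way, and DESeq2 called 1 higher, Mthfd2. Mthfd2 was at 311, 314 and 312 CPM with DMSO and 388, 358 and 359 CPM with halofuginone, wholly above, a change of 0.24 ± 0.067 (adjusted p = 0.272). In polysomes the counts with halofuginone were 0 and 0 (background 0.0409% and 0.00818%), with 1 higher and 0 lower at an unadjusted p under 0.05 and 0 and 0 by DESeq2. In efficiency they were 0 and 0 (background 0% and 0%), also unadjusted and by DESeq2.

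Psat1, Psph, Shmt1 and Mthfd2 fell with Torin1 in total RNA and in polysomes. These 4 of 8 stand beside 13.3% of all genes called lower in total RNA and 8.3% in polysomes. Mthfd2 went from 349, 342 and 319.8 CPM in DMSO polysomes to 169, 188 and 166 CPM with Torin1, which is 0.517-fold, with no overlap. Its changes were -0.35 ± 0.068 (adjusted p = 0.00101) in total RNA, -0.95 ± 0.12 (adjusted p = 4.65e-05) in polysomes and -0.56 ± 0.13 (adjusted p = 0.0168) in efficiency, where it was the 1 member called lower (background 1.67%). The efficiency call of Mthfd2 was lost in 5 of 12 leave-one-out fits (replicate 1 of total DMSO, replicates 1 and 3 of total Torin1 and replicates 1 and 4 of polysome Torin1; changes of -0.62 to -0.52 over all 12). Psph measured 111, 104 and 107 CPM with DMSO and 79.3, 80.2 and 79.4 CPM with Torin1 in total RNA, groups that lay apart, and changed by -0.43 ± 0.084 (adjusted p = 0.000969) there and by -0.42 ± 0.12 (adjusted p = 0.0174) in polysomes. Psat1 changed by -0.29 ± 0.077 (adjusted p = 0.00914) in total RNA and -0.48 ± 0.13 (adjusted p = 0.0148) in polysomes. The polysome calls were lost without DMSO replicate 1 (-0.37, adjusted p = 0.108) and without Torin1 replicate 4 (-0.46, adjusted p = 0.0608) for Psat1 and in 4 of 6 leave-one-out fits (replicates 1 and 3 of DMSO and replicates 3 and 4 of Torin1; changes of -0.49 to -0.38 over all 6) for Psph. Shmt1 changed by -0.63 ± 0.11 (adjusted p = 0.000319) in total RNA and -0.53 ± 0.13 (adjusted p = 0.00788) in polysomes. The other 4 members, none called, had changes with Torin1 of -0.092 ± 0.10 (Phgdh), -0.10 ± 0.12 (Shmt2), -0.24 ± 0.18 (Mthfd1) and 0.14 ± 0.15 (Mthfd1l) in total RNA and of -0.26 ± 0.14 (Phgdh), -0.034 ± 0.13 (Shmt2), 0.036 ± 0.13 (Mthfd1) and 0.22 ± 0.12 (Mthfd1l) in polysomes.

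With 4EGI-1 Shmt1 was the 1 member called lower in total RNA (background 12.3%) and in polysomes (background 14.5%). In total RNA Shmt1 stood at 105, 83.8 and 90.9 CPM with DMSO and 52.7, 60.9 and 71.4 CPM with 4EGI-1, with no overlap. It changed by -0.60 ± 0.11 (adjusted p = 0.000502) in total RNA and -0.68 ± 0.13 (adjusted p = 0.00101) in polysomes. The count in total RNA rested on 4EGI-1 replicate 4: without it 5 members were called lower, among them Mthfd1 (-0.56, adjusted p = 0.0146), Phgdh (-0.27, adjusted p = 0.04), Psat1 (-0.27, adjusted p = 0.019) and Shmt2 (-0.32, adjusted p = 0.0431). Without DMSO replicate 3 the change of Psat1 was also called (-0.25, adjusted p = 0.0404). In efficiency 0 members were called higher and 0 lower with 4EGI-1 (background 0.282% and 0.282%), also at an unadjusted p under 0.05 and by DESeq2. Set against 4EGI-1 in polysomes, a pair taken by no stated rule from all drug pairs fitted, Torin1 gave lower levels of 3 members (background 22% either way): Psat1 (-0.38 ± 0.13, adjusted p = 0.0402), Psph (-0.45 ± 0.12, adjusted p = 0.00918) and Mthfd2 (-0.74 ± 0.12, adjusted p = 0.00017). Psat1 was lost without the filter on low counts (-0.37, adjusted p = 0.0599) and in 5 of 6 leave-one-out fits (replicates 3 and 4 of 4EGI-1 and replicates 1, 3 and 4 of Torin1; changes of -0.42 to -0.32 over all 6), and Psph without Torin1 replicate 4 (-0.41, adjusted p = 0.0529). The doses are not given in the labels, so compounds are compared as used.

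The levels of each member across the drug groups are given in order, with the neighbours whose libraries lay apart. Lying apart is not a call, and how many of all genes do so was not computed. Mthfd2 had libraries without overlap at every step, most of them not called, and Shmt2, Mthfd1 and Mthfd1l at none. Means below are CPM ± SD of 3 libraries in descending order, and adjusted p-values are those of edgeR between neighbours. Total RNA held 431 ± 37.5 with DMSO, 414 ± 34.7 with halofuginone, 404 ± 20.4 with Torin1 and 396 ± 66.3 with 4EGI-1 for Phgdh, all overlapping. Polysomes held 767 ± 127 with DMSO, 748 ± 26.0 with halofuginone, 643 ± 86.5 with 4EGI-1 and 639 ± 64.3 with Torin1, where halofuginone and 4EGI-1 lay apart (adjusted p = 0.351). Psat1 was at 424 ± 6.66 with halofuginone, 418 ± 24.3 with DMSO, 364 ± 38.4 with 4EGI-1 and 342 ± 9.79 with Torin1 in total RNA, with DMSO and 4EGI-1 apart (adjusted p = 0.0609). In polysomes it was at 635 ± 69.4 with halofuginone, 543 ± 57.4 with DMSO, 505 ± 38.4 with 4EGI-1 and 389 ± 12.2 with Torin1, with 4EGI-1 and Torin1 apart (adjusted p = 0.0402). For Psph the total RNA order was 108 ± 11.4 with 4EGI-1, 108 ± 3.44 with DMSO, 107 ± 9.48 with halofuginone and 79.7 ± 0.491 with Torin1. The polysome order was 195 ± 7.58 with halofuginone, 192 ± 12.9 with 4EGI-1, 188 ± 3.08 with DMSO and 140.2 ± 11.3 with Torin1. In each, Torin1 lay apart from its neighbour (adjusted p = 0.00126 in total RNA and 0.0174 in polysomes) and the others overlapped. Shmt1 stood at 93.3 ± 11.0 with DMSO, 76.8 ± 4.28 with halofuginone, 61.7 ± 9.38 with 4EGI-1 and 60.4 ± 4.60 with Torin1 in total RNA, where only the last pair overlapped. The adjusted p was 0.454 between DMSO and halofuginone and 0.0401 between halofuginone and 4EGI-1. Its polysome levels were 184 ± 13.7 with DMSO, 165 ± 11.3 with halofuginone, 127 ± 8.14 with Torin1 and 115 ± 14.4 with 4EGI-1, where only halofuginone and Torin1 lay apart (adjusted p = 0.0742). Shmt2 was at 328 ± 29.3 with DMSO, 308 ± 37.2 with halofuginone, 306 ± 25.0 with Torin1 and 289 ± 53.1 with 4EGI-1 in total RNA. Polysomes had 432 ± 20.7 with halofuginone, 419 ± 41.1 with DMSO, 409 ± 31.3 with Torin1 and 384 ± 52.1 with 4EGI-1, with every neighbour overlapping. Mthfd1 stood at 87.6 ± 16.0 with DMSO, 74.3 ± 13.7 with Torin1, 71.4 ± 22.1 with 4EGI-1 and 71.3 ± 8.66 with halofuginone in total RNA. In polysomes it stood at 81.8 ± 4.90 with Torin1, 79.7 ± 4.22 with DMSO, 73.5 ± 2.83 with halofuginone and 73.1 ± 13.9 with 4EGI-1, and its groups overlapped throughout. Mthfd1l overlapped too, at 157 ± 28.1 with Torin1, 142 ± 25.0 with DMSO, 134 ± 27.7 with 4EGI-1 and 132 ± 7.45 with halofuginone in total RNA. Its polysome levels were 135 ± 5.74 with Torin1, 125 ± 5.05 with halofuginone, 124 ± 17.3 with 4EGI-1 and 116 ± 2.56 with DMSO. Mthfd2 was the member with no overlap between neighbours in either assay, at 368 ± 17.2 with halofuginone, 312 ± 1.84 with DMSO, 287 ± 11.3 with 4EGI-1 and 246 ± 15.1 with Torin1 in total RNA. In polysomes Mthfd2 was at 407 ± 14.8 with halofuginone, 337 ± 15.2 with DMSO, 291 ± 13.2 with 4EGI-1 and 174 ± 12.3 with Torin1. Only its step from 4EGI-1 to Torin1 was called (adjusted p = 0.0139 in total RNA and 0.00017 in polysomes). Its steps from halofuginone to DMSO (0.272 and 0.377) and from DMSO to 4EGI-1 (0.206 and 0.177) were not.

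**Figure D5:**
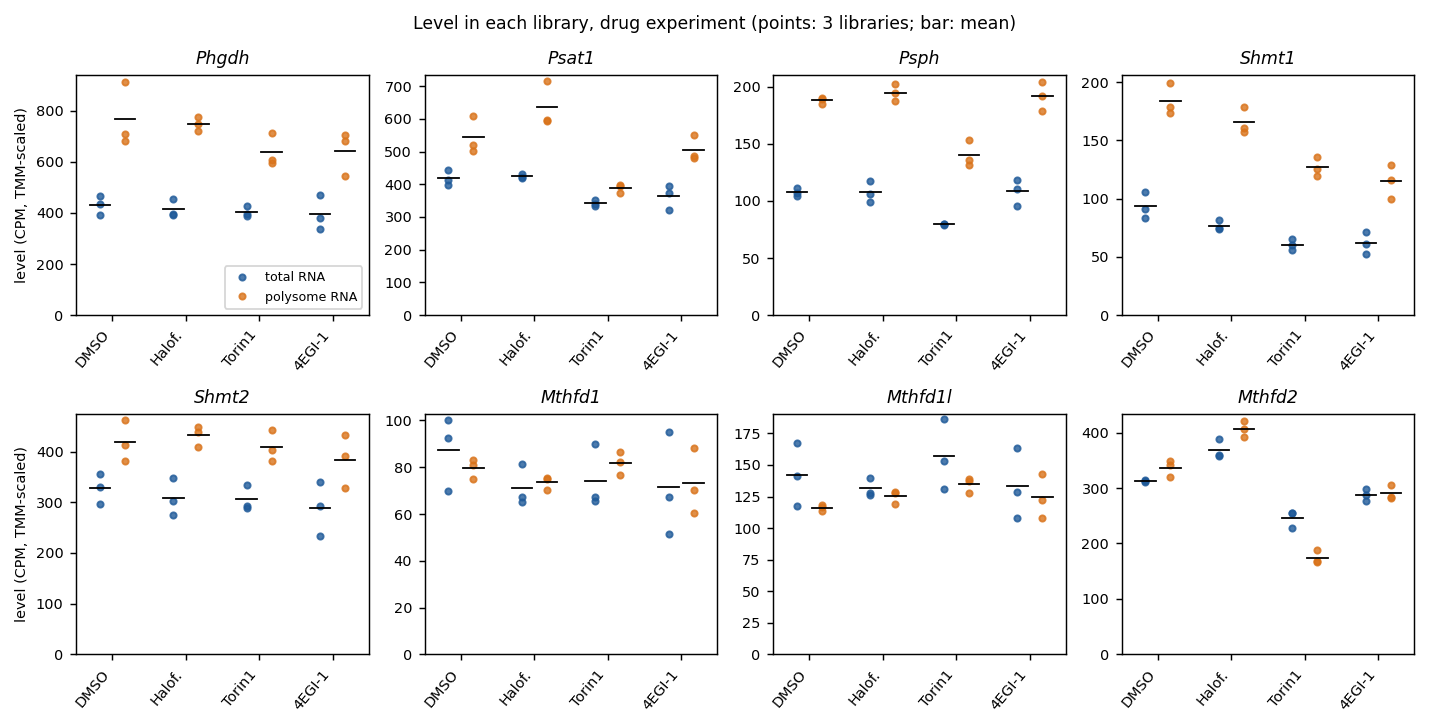
Levels of the 8 enzymes in the drug experiment, one panel per gene, with TMM-scaled CPM on the y axis and DMSO, halofuginone, Torin1 and 4EGI-1 on the x axis; blue points are total RNA libraries, orange points polysome libraries and bars the means of 3. Mthfd2 falls to a mean of 174 CPM in polysomes with Torin1, and the groups of Mthfd1 overlap throughout.

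The within-library ratio of Shmt2 to Shmt1 was above DMSO with each drug, in comparisons that share the DMSO libraries. Shmt2 itself was called with no drug in either assay. Its total RNA changes were -0.088 with halofuginone, -0.10 with Torin1 and -0.18 with 4EGI-1. Shmt1 was called lower with Torin1 and 4EGI-1, and not with halofuginone (-0.28). The exact permutation p (two-sided) of each ratio comparison was 0.1, the smallest it can be. In total RNA the ratio of Shmt2 to Shmt1 was 3.37, 3.55 and 3.64 in the DMSO libraries and 4.86, 5.18 and 5.14 with Torin1. Group ratios were 3.52 with DMSO and 4.00 with halofuginone, 5.06 with Torin1 and 4.66 with 4EGI-1 in total RNA. They were 2.28 with DMSO and 2.61 with halofuginone, 3.22 with Torin1 and 3.34 with 4EGI-1 in polysomes. In Torin1 polysomes the ratio of Mthfd2 to Mthfd1 was 2.20, 2.18 and 2.01, wholly below the 4.20, 4.22 and 4.26 of DMSO.

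Of 42 other genes listed for the pathway, 34 were in the table: folate enzymes, folate and serine carriers, the glycine cleavage system and enzymes that use serine or glycine. In total RNA these gave 4 higher and 1 lower without arginine (background 5.1% and 4.14%), 8 and 11 without BCAA (background 16.4% and 13.6%) and 7 and 12 without glucose (background 21.8% and 19%). They gave 8 higher and 12 lower without glutamine (background 20.4% and 18.6%) and 9 and 8 without methionine (background 19.5% and 15.7%). Their median log2 fold changes were -0.013 without arginine, 0.010 without BCAA, -0.0086 without glucose, -0.10 without glutamine and 0.018 without methionine, where those of all genes are given above. With drugs 33 of them were tested in total RNA. The counts were 1 higher and 0 lower with halofuginone (background 0.239% and 0.0399%), 1 and 11 with Torin1 (background 13.3% each way) and 4 and 5 with 4EGI-1 (background 14.1% and 12.3%). Without methionine, where 19.5% of all genes were higher and 15.7% lower, the 14 other folate enzymes gave 2 higher and 2 lower and the 8 carriers 3 higher and 2 lower. The 3 genes of glycine cleavage gave 1 higher and 1 lower, and the 9 users of serine or glycine 3 higher and 3 lower. In polysomes the 34 gave 14 higher and 8 lower without arginine (background 19% and 21.6%), 9 and 13 without BCAA (background 28.7% and 27.4%) and 13 and 12 without glucose (background 29.6% and 29.4%). They gave 12 higher and 17 lower without glutamine (background 32.2% and 32.4%) and 15 and 11 without methionine (background 34.3% and 34.7%). Slc1a4, a carrier of serine and other neutral amino acids, rose in all 5 deprivations, by 0.86 ± 0.079 without arginine, 2.00 ± 0.079 without BCAA, 1.01 ± 0.078 without glucose, 1.51 ± 0.079 without glutamine and 2.22 ± 0.079 without methionine, rose with halofuginone (0.96 ± 0.10) and 4EGI-1 (1.19 ± 0.10), and fell with Torin1 (-0.74 ± 0.11). Aldh1l2, a mitochondrial folate dehydrogenase, rose without glucose (0.65 ± 0.11), and the mitochondrial serine carrier family member Sfxn3 rose with Torin1 (0.70 ± 0.096).

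Among genes that fell, the reduced folate carrier Slc19a1 changed by -0.96 ± 0.082 without glucose, -0.62 ± 0.081 without glutamine and -0.42 ± 0.089 with 4EGI-1. The proton-coupled folate carrier Slc46a1 changed by -1.13 ± 0.43 without glucose (adjusted p = 0.0392), with the largest standard error of the named changes. Slc25a32, the mitochondrial folate carrier, changed by -0.35 ± 0.074 without arginine and -0.72 ± 0.092 with Torin1, and the serine carrier Sfxn1 by -0.29 ± 0.055 without methionine. The purine enzyme Gart, which uses formyl-folate, changed by -0.74 ± 0.076 without BCAA, and Mtfmt, which formylates the mitochondrial initiator tRNA, by -0.75 ± 0.082 without glutamine. Alas1, the first enzyme of haem synthesis and a user of glycine, changed by -0.49 ± 0.086 without BCAA and -0.35 ± 0.086 without methionine, and Fpgs, which adds glutamate to folates, by -0.61 ± 0.097 with 4EGI-1. Adjusted p-values of these named changes, other than that of Slc46a1, were at most 0.00472.

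The transcripts of 4 regulators known to act on the pathway were read in the same total RNA fits. The changes of Atf4, all called, were 0.37 ± 0.058 without arginine, 0.61 ± 0.058 without BCAA, 0.60 ± 0.058 without glucose, 0.58 ± 0.058 without glutamine and 0.77 ± 0.058 without methionine. The drugs gave Atf4 changes of 0.49 ± 0.061 with halofuginone, -0.58 ± 0.061 with Torin1 and 0.18 ± 0.061 with 4EGI-1. Ddit3, a stress-induced factor downstream of Atf4, had changes of 1.24 ± 0.072 without arginine, 3.27 ± 0.073 without BCAA, 2.89 ± 0.073 without glucose, 3.55 ± 0.074 without glutamine and 3.02 ± 0.073 without methionine. The drugs gave Ddit3 changes of 0.85 ± 0.085 with halofuginone, -0.13 ± 0.087 with Torin1 (not called) and 0.89 ± 0.085 with 4EGI-1. For Nfe2l2, a regulator of the antioxidant response, they were -0.047 ± 0.070 without arginine (not called), 0.46 ± 0.069 without BCAA, 0.32 ± 0.069 without glucose, 0.31 ± 0.069 without glutamine and 0.88 ± 0.069 without methionine. The drugs gave Nfe2l2 changes of 0.16 ± 0.080 with halofuginone (not called), -0.043 ± 0.081 with Torin1 (not called) and 0.29 ± 0.080 with 4EGI-1. For Myc, a driver of growth in activated T cells, they were 0.18 ± 0.095 without arginine (not called), 0.20 ± 0.095 without BCAA (not called), -0.20 ± 0.095 without glucose (not called), 0.14 ± 0.095 without glutamine (not called) and 0.46 ± 0.095 without methionine. The drugs gave Myc changes of -0.049 ± 0.089 with halofuginone (not called), 0.44 ± 0.089 with Torin1 and -0.996 ± 0.090 with 4EGI-1. Transcript levels do not report the activity of these proteins, and no link from a regulator to a member was tested.

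The 20 group means of log2 CPM were each centred within their experiment and assay, so those centred together are not independent. Pearson's r over these means gave the genes, of 11611, whose pattern was most like each member's, and the values are descriptions. For Phgdh these were Tars1 (0.98), Hspa9 (0.96) and Shmt2 (0.96), for Psat1 Gars1 (0.93), Bcat1 (0.93) and Atf5 (0.92) and for Psph Hax1 (0.95), Gpt2 (0.93) and Lmo4 (0.92). Shmt2 was most like ENSMUSG00000037851.14 (0.96), Phgdh (0.96) and Cdca2 (0.94), and Shmt1 like Trappc13 (0.88), Nfkbid (0.87) and Extl3 (0.87). For Mthfd1 they were Cad (0.92), Xrcc6 (0.91) and Dhx37 (0.91), for Mthfd1l Eif3c (0.95), Gsn (0.95) and Kif4 (0.94) and for Mthfd2 Stk40 (0.90), ENSMUSG00000074656.13 (0.89) and Psat1 (0.88). Identifiers without a symbol are given as in the table.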

How the data were processed

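The authors deposited raw counts, unnormalized whole numbers for each Ensembl gene, covering 60 of the 78 labelled libraries. Monosome libraries (18) were not analysed here. The submitters' processing notes list FastQC, MultiQC, Trimmomatic, STAR, HTSeq and edgeR with the build GRCm39, without versions. The fits used edgeR 4.0.16, with limma 3.58.1, under R 4.3.3: filterByExpr with a minimum count of 10, TMM scaling, and the quasi-likelihood test, adjusted by the Benjamini-Hochberg method over all genes of a comparison and called under 0.05. TMM takes most genes as unchanged, so every change is relative.

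Each experiment's total RNA was fitted over all its groups (12642 genes tested under deprivation and 12535 under drugs), and so was its polysome RNA (12417 and 12223). Translational efficiency was the interaction term of a fit over both kinds of library (13072 and 12745 genes). Standard errors were derived from each fold change and its F statistic. Scripts were tested on simulated counts. Alternatives were DESeq2 1.42.0, its size factors within edgeR, no filter, a minimum count of 50, the table without entries derived from ribosomal RNA, only the groups compared, the replicate number as a block, a pseudocount for ratios, and each library left out.

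Residuals of libraries with the same replicate number had mean correlations of 0.059 (total RNA) and 0.139 (polysomes) under deprivation and of 0.107 and 0.0819 under drugs. Single values ran from -0.142 to 0.304 and from -0.236 to 0.546 under deprivation, and from -0.0927 to 0.329 and from -0.29 to 0.317 under drugs. These values do not settle whether the numbers pair libraries within an assay. The main fits left the numbers out, and a block on them was an alternative. Total and polysome libraries of 1 lysate, paired by the protocol in the labels, correlated at means of 0.117 and 0.154. The main efficiency fits left this pairing out too, and the lysate block was an alternative.

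Changes of all 8 genes are given for every deprivation against Control and for Torin1 in total and polysome RNA. For the other drugs, and in efficiency with drugs, changes are given for some members at most. Of the other pathway genes, those named have the 2 highest and 2 lowest called changes of a total RNA comparison, beside 4 regulators and, for each member, the 3 genes of most similar pattern. A result that this rule names is not reported here. The genes and lists were chosen with earlier results of these data known, and the CCAAT search was added after the sequences were read. Upstream windows came from RefSeq on GRCm38.p6, matched by symbol for all 8 genes.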

Additional observations from a re-analysis of the deposited data

How the results depend on the processing

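No member changed direction with a call under any alternative. The 336 recomputed ratios, from a pseudocount or a library left out, stayed within 1 SD. Leaving out 1 of 3 libraries cannot move a mean log ratio by 1 SD, so those values could not have failed. The counts of members called were moved by over 1.5 times as follows, and apart from fits on fewer libraries the cause was not tested. The share of all genes called under each alternative is not set beside these counts. Without arginine in total RNA (1 higher, 0 lower), DESeq2 gave 2 and 1, a minimum count of 50 gave 2 higher, the groups compared alone gave 0 higher, and libraries left out gave 0 to 2 and 0 to 1. Without arginine in polysomes (6 and 1), the groups compared alone gave 3 and 0, and libraries left out 3 to 6 and 0 to 1. In efficiency without arginine (3 higher), the groups compared alone gave 1 and libraries left out 1 to 5. In efficiency without BCAA (2 and 1), DESeq2 gave 5 and 0, its size factors 4 and 0, the groups compared alone 4 and 0, and libraries left out 1 to 3 and 0 to 1. In efficiency without glutamine (2 and 2), DESeq2 and its size factors each gave 4 higher, and libraries left out 2 to 6 and 1 to 2; in efficiency without glucose the latter gave 1 to 3 higher. Members lower in total RNA without methionine were 1 with the groups compared alone. Leaving out libraries gave 1 to 2 lower without methionine, 1 to 2 without BCAA and 0 to 1 without glutamine in total RNA, and 0 to 2 lower in polysomes over total RNA in Control. With Torin1 it gave 2 to 4 lower in polysomes and 0 to 1 in efficiency. With 4EGI-1 in total RNA, DESeq2 and the table without a filter each gave 2 lower, and libraries left out 1 to 5; with halofuginone DESeq2 gave 1 higher. Scaling by DESeq2's size factors moved the median efficiency change of all genes without glutamine by 0.131, and the groups compared alone moved that without methionine by 0.122.

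With the replicate number as a block, total RNA without arginine gave 2 members higher and 1 lower, adding Shmt2 (0.22, adjusted p = 0.0328) and Mthfd1 (-0.33, adjusted p = 0.0277), and polysome RNA without arginine added Mthfd1 (0.27, adjusted p = 0.0254). In efficiency without arginine the block gave 5 higher. Without arginine the block called 1512 of 12642 genes either way in total RNA, 5683 of 12417 in polysomes and 3025 of 13072 in efficiency. With 3 libraries a group, changes near 0.2 were called or not depending on single libraries.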
